A study of Homo sapiens with 12 samples.

Results

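The comparison described is the 3 day treatment of NT2/D1 cells with 5-aza deoxycytidine (5-aza) against control, over every array probe detected in it. A probe was a member when its detection p-value, which sets its signal against the negative control beads of the same array, was under 0.05 on at least 3 of the 6 arrays compared. This left 16452 of the 47231 probes of the array, of which 12752 carried the symbol of a single gene and 3700 had no gene name. Where several probes of a gene were kept the brightest stood for it, which gave 10088 of the 20045 genes on the array.

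NT2/D1 is a human embryonal carcinoma line, the stem cell component of a testicular germ cell tumor. The 5-aza group was given 10 nM of the drug, renewed daily, for 3 days (3 arrays), and the control group had no drug (3 arrays; the sample labels have it untreated, the description of the series has it given vehicle). A further 3 arrays of cells given 10 nM 5-aza for 1 day entered only the normalization and the estimate of the spread. The 3 arrays of cells given cisplatin, whose replicates vary more, were left out. All 12 arrays lay on 1 chip with each group in neighbouring positions, so position and treatment cannot be told apart. The study describes marked cell death by this time at this dose, so the RNA is that of the cells still present at harvest. The series calls the groups biological triplicates, but the labels do not say that replicates were separate cultures, and if they were not, the p-values rest on technical spread. The RNA is that of the whole harvest of a single tumor line, and fewer cells of a kind and less RNA per cell cannot be told apart in it.

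5-aza is a cytidine analog that is built into DNA and traps DNA methyltransferases, so that methylation marks are lost as cells divide and genes silenced by promoter methylation can be transcribed again. The trapped protein also damages DNA. In a pluripotent line such as NT2/D1 the drug meets a cell with much methyltransferase and a developmental program that can still be switched, and the lists below follow parts of cell physiology other than damage and pluripotency: RNA processing and nuclear transport, protein turnover, mitochondria, lysosomes, signalling, adhesion, excitability and metabolism.

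The labelled cell type was checked against 13 embryonal carcinoma markers. Of these, 12 were on the array, 11 were detected on all arrays of both groups, and ZFP42 was detected on none. Their summed level was 15.82 to 15.95 (log2) at 3 days and 16.22 to 16.25 in control, and 6 were called lower, among them NANOG with 9.79, 10.09 and 9.94 at 3 days against 11.24, 11.26 and 11.30 in control. Of 8 neuron markers 2 were called higher (STMN2 and MAP2) and 1 lower (DCX), while SYT1, SNAP25 and ELAVL4 were undetected on every array. Their summed level was 13.09 to 13.21 at 3 days against 12.45 to 12.99 in control. This sum was close to the level of TUBB3 alone (12.87 to 13.01 against 12.23 to 12.81), which was not called. It therefore does not show a rise of the neuron markers as a set. Of 10 fibroblast markers 1 was called higher (COL1A1) and 2 lower (PDGFRA and THY1), with a summed level of 11.06 to 11.26 against 11.43 to 11.60. Of 7 endoderm markers APOA1 was called higher (summed level 8.77 to 8.83 against 8.62 to 8.67, with AFP, SOX17, FOXA2 and both GATA factors undetected), and of 5 endothelium markers VWF was called higher and TEK lower (9.41 to 9.43 against 9.64 to 9.78). For blood and immune cells, of whose 7 markers on the array only CD68 was detected on all arrays, and for epithelium, trophoblast and germ cells no marker was called. The part of any other cell type in the results was not tested.

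Against control, 5-aza for 3 days changed the level of many detected genes in both directions. By gene, though not by probe at 1.5-fold, large rises outnumbered large falls. limma called 6069 probes at a Benjamini-Hochberg adjusted p under 0.05 (36.9%), 2981 higher and 3088 lower than in control. By gene, 2271 were higher (22.5%) and 1829 lower (18.1%), with a median absolute difference of 0.61 on the log2 scale among those called. With genes undetected in a group set at their bound, a change of at least 1.5-fold was reached by 1246 of the higher and 895 of the lower genes, one of at least 2-fold by 446 and 209, and one of at least 4-fold by 43 and 8 (57 and 11 by the fitted values). Over all kept probes, named and unnamed, 1625 higher and 1608 lower ones reached 1.5-fold by the fitted values, close to an even split. The 3 day and control arrays did not overlap for 5184 genes (51.4%), including 3984 of the 4100 called. The split of the calls depended on how the arrays were scaled. Median raw intensities were 154 to 166 at 3 days and 180 to 188 in control, and when arrays were aligned only by their medians in place of their whole distributions, 5985 probes were called, 22% of them higher in place of 49.1%, and the median difference over the 10088 genes was -0.185 in place of 0.03. By gene, median scaling called 1033 of the 10088 higher and 2852 lower. Counts of lists given below under that scaling are to be set beside these. Values below come from quantile normalised arrays, and where median scaling turns the sign of a list median given here, this is stated beside it.

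**Figure D1:**
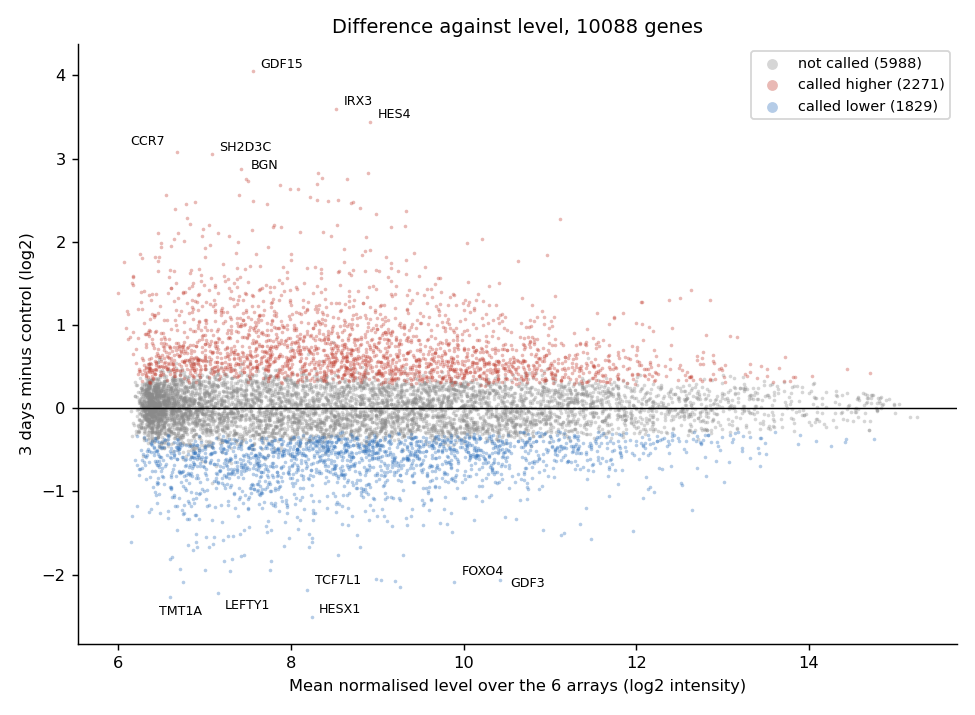
Each point is a gene, with its mean normalised level over the 6 arrays (log2 intensity) on the horizontal axis and its difference, 3 days minus control (log2), on the vertical. Red points are the 2271 genes called higher, blue the 1829 called lower and grey the rest; GDF15, at the top, was undetected in control and its plotted value of 4.05 is set against background, as are those of CCR7, SH2D3C and BGN, while IRX3 (3.60), HES4 (3.44) and, lowest, HESX1 (-2.50) were detected in both groups.

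The 12 genes named for the largest fitted rises include 5 that were undetected in control, so that their order among the 12 is not measured. GDF15, a stress-induced cytokine of the TGF-beta family, had 9.45, 9.65 and 9.68 at 3 days against 5.69, 5.36 and 5.57 in control, where it was not detected, an increase of at least 9.65-fold (the lower bound sets the control arrays at the dimmest signal that was still detected on each). IRX3, a homeobox factor of neural patterning, had 10.15, 10.28 and 10.55 against 6.66, 6.42 and 7.10. ZCCHC12, a coactivator in BMP signalling, had 10.26, 10.26 and 10.42 against 7.20, 7.36 and 7.89. MAOA, the monoamine oxidase that breaks down serotonin and noradrenaline, had 8.94, 8.88 and 8.76 against 6.08, 5.91 and 6.31. In each, every array at 3 days lay above every control array, as the rule for naming genes required. The others were HES4, ADGRG1, S100A4, TAGLN3 (2.76 by its brightest probe and 0.55 by its second) and, with a bound only, BGN (at least 5.82-fold), CCR7 (at least 3.72-fold), PLA2G2A and SH2D3C, whose values follow.

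The 12 genes with the largest fitted falls include regulators of growth and patterning. DUSP6, the phosphatase that restrains ERK and is itself an ERK target, had 8.30, 7.98 and 7.75 at 3 days against 10.26, 9.92 and 10.03 in control. TCF7L1, a repressor in Wnt signalling, had 7.33, 6.98 and 6.97 against 9.53, 9.39 and 8.91. OSBPL10, an oxysterol binding protein, had 8.26, 7.97 and 8.33 against 10.39, 10.26 and 10.35. FOXO4, a forkhead factor held out of the nucleus by insulin signalling, had 8.79, 8.89 and 8.87 against 11.02, 10.99 and 10.80, and TIMP4, a tissue inhibitor of metalloproteinases, had 8.29, 8.10 and 8.13 against 10.44, 10.23 and 10.08. The rest were HESX1, TMT1A, LEFTY1, PDE4B, GDF3, MYC and BNC2. TMT1A, LEFTY1 and PDE4B were not detected at 3 days, so that their falls are bounds, at least 2.56-, 3.70- and 2.68-fold.

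A gene below detection in control and detected after 5-aza is the pattern by which methylation-silenced genes are usually sought. Of the higher genes, 138 were below detection on all control arrays by all of their probes. For 98 of the lower genes the reverse held. Methylation was not measured on these arrays, so whether any of these promoters lost it was not tested. The study itself lists GDF15 among p53 target genes. The promoters of the 4 genes with the largest such bounds are printed to show how many CpG sites, the substrate of the methyltransferases, they offer. The sequences are from RefSeq (GRCh38.p14), 250 bases before to 50 after the start site, 5′ to 3′ on the strand of the gene, with each CpG in capitals.
GDF15: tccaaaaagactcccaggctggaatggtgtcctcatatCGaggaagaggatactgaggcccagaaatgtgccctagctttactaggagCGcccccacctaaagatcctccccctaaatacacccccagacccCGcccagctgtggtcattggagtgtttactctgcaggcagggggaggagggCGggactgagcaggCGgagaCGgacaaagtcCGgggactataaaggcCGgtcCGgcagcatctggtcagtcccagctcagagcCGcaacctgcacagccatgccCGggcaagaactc
PLA2G2A: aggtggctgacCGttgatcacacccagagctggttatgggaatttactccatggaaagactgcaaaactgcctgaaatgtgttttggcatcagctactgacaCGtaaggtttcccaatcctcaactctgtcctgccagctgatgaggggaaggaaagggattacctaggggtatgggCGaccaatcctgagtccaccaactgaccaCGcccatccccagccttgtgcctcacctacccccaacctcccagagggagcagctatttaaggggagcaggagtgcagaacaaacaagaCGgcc
BGN: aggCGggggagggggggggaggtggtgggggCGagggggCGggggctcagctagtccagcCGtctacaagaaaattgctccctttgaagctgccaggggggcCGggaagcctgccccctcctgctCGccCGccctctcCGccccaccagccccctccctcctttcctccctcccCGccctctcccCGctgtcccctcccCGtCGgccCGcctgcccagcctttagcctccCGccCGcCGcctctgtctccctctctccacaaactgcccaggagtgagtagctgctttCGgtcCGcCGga
SH2D3C: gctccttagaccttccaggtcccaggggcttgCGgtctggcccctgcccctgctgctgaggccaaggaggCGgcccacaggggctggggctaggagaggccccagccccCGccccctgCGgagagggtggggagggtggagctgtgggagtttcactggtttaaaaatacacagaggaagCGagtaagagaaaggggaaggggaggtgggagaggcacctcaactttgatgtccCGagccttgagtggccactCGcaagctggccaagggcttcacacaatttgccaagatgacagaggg
The GDF15 window (chr19:18385908-18386207, plus strand) holds 11 CpG, that of PLA2G2A, a secreted phospholipase (chr1:19979610-19979909, minus strand), holds 5, that of BGN, the matrix proteoglycan biglycan (chrX:153494730-153495029, plus strand), holds 19, and that of SH2D3C, a signalling adaptor (chr9:127778617-127778916, minus strand), holds 7. PLA2G2A had 8.81, 8.77 and 9.01 at 3 days against 6.22, 6.30 and 5.87 in control, at least 5.83-fold higher. SH2D3C had 8.52, 8.65 and 8.65 against 5.66, 5.48 and 5.53, at least 4.87-fold higher.

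A promoter could be matched for 8218 of the genes tested. Over all of them the median was 26 CpG, and it was the same, 26, for the 1836 higher genes, against 27 for the 1526 lower genes. The 100 promoters of genes undetected in control and higher at 3 days had a median of 19 CpG, and 25% of them held under 10 CpG, against 11.8% of all tested. The 70 promoters of genes lower and undetected at 3 days had a median of 25, with 11.4% under 10. Among the windows searched on both strands for CCGGAAG, the core bound by ETS factors (chosen after its values were seen), it was in 14.4% of promoters of higher genes, 20.9% of lower, 20.8% of genes not called, 4% of higher genes undetected in control and 11.4% of lower genes undetected at 3 days, against 19.4% of all tested and 10.7% of all 27305 promoters of the reference.

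Genes of RNA processing and nuclear transport were mostly lower where they were called. Pre-mRNA is spliced by small nuclear ribonucleoproteins and their regulators before export through the nuclear pore, and cargo passes the pore bound to karyopherins in a cycle driven by the GTPase Ran. Of 49 measured spliceosome genes (of 54) 24 were lower and none was higher, with a median difference of -0.33 against 0.03 for all genes. At an unadjusted p under 0.05 from limma 1 was higher, PRPF4. Leaving out single arrays gave 19 to 24 lower genes, and 1 higher without control replicate 2 or 3, while the fit with the cisplatin arrays called 8 lower. Among U4/U6.U5 components and splicing regulators 17 of 29 were lower, against 7 of 20 among core snRNP and U2 genes. SRSF3, a serine and arginine rich splicing factor, had 10.34, 10.17 and 10.08 at 3 days against 11.39, 11.16 and 11.31 in control (-1.09 ± 0.12, adjusted p = 2.3e-05). HNRNPK had 11.70, 11.68 and 11.72 against 13.03, 12.53 and 12.56, and HNRNPC, another of the abundant RNA binding proteins that coat nascent transcripts, had 10.55, 10.48 and 10.29 against 11.34, 11.40 and 11.38, with its second probe at -0.27. EFTUD2, the GTPase of the U5 particle, differed by -0.82 ± 0.17. SNRPD3, a Sm core protein, had 7.62, 7.02 and 7.53 in control and was not detected at 3 days, a fall of at least 2.02-fold. In all of these the groups did not overlap, which the rule for naming genes required.

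Nuclear pore and import genes moved the same way. Of 51 measured (of 54) 27 were lower and 2 higher, with a median of -0.34. The karyopherin and Ran group had 15 of 27 lower and none higher (1 by limma at an unadjusted p under 0.05, RANGAP1), and the nucleoporins 12 of 24 lower and 2 higher. NUP153, a nucleoporin of the nuclear basket, had 8.03, 7.95 and 7.90 at 3 days against 9.75, 9.40 and 8.94 in control (-1.40 ± 0.18, adjusted p = 8.3e-05). IPO4, an importin for histones and ribosomal proteins, had 7.64, 7.45 and 7.82 against 9.19, 8.89 and 8.5, and KPNA2, an importin alpha, had 10.49, 10.39 and 10.23 against 11.37, 11.26 and 10.99. IPO5 (-0.93 ± 0.15), NUP188 (-0.89 ± 0.14) and NUP160 (-0.82 ± 0.17) were lower too. For TNPO1, the importer of hnRNP proteins, the brightest probe was lower by 0.75 ± 0.14, while its other probes stood at 0.33 and -0.03. Against the list, NUP37, a member of the Y-shaped pore scaffold, had 11.56, 11.71 and 11.56 against 10.90, 10.98 and 11.13 (0.61 ± 0.11). The mean of the list was steady over the 3 day arrays (0.19 to 0.21 below its mean over all 6) and spread over the controls (0.07 to 0.32 above it), with control replicate 1 highest. Leaving out single arrays gave 22 to 30 lower genes, and the fit with the cisplatin arrays 11, while a single gene was higher without control replicate 2, 1 day replicate 1 or 2, or any 3 day replicate. With median scaling 38 genes of this list and 31 of the spliceosome list were called lower. That scaling called more genes lower in general, 2852 of all 10088 in place of 1829.

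**Figure D2:**
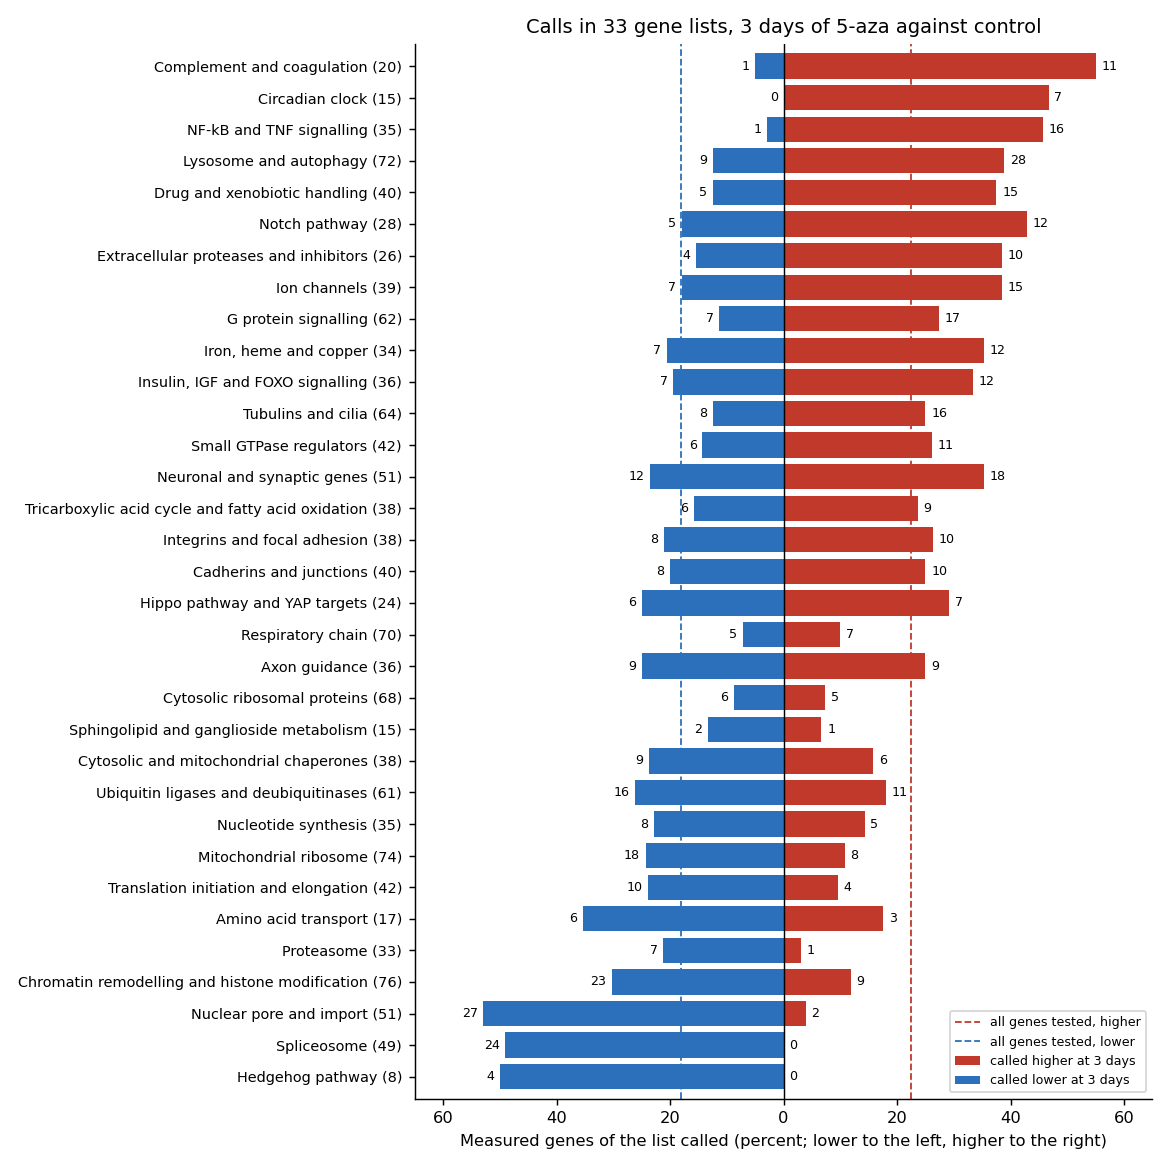
For each of 33 lists, with the number of genes measured in brackets, red bars give the percent of measured genes called higher at 3 days and blue bars the percent called lower, with counts at the bar ends. Dashed lines mark all genes tested (22.5% higher, 18.1% lower). The complement and coagulation, circadian clock, NF-kB and Notch bars lie furthest past the line for higher genes. The nuclear pore, Hedgehog and spliceosome bars lie furthest past the line for lower genes. Many other bars pass a line as well. Examples are lysosome (38.9%) and ion channels (38.5%) for higher genes, and amino acid transport (35.3%) and chromatin (30.3%) for lower genes.

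Other machinery of protein synthesis and folding moved less. Of 42 translation factors 10 were lower (23.8%) and 4 higher (9.52%), or 2 higher without 3 day replicate 1 or 2. Among all genes 18.1% were lower and 22.5% higher. EIF4G1, the scaffold of the cap binding complex, had 9.65, 9.60 and 9.60 at 3 days against 10.52, 10.24 and 9.91 in control, and EIF6, which keeps the large subunit from joining early, differed by -0.69 ± 0.11, whereas EEF2, the translocation factor of elongation, was higher (13.80, 13.65 and 13.64 against 13.23, 13.32 and 13.01). Of 68 ribosomal protein genes 57 were not called, with 5 higher and 6 lower and RPL29 (-0.64 ± 0.14) the largest difference among them. The sign of the median of this list, 0.06, turned to -0.10 with median scaling, and only 1 gene was higher without 3 day replicate 2 and 2 without replicate 3, as 3 were lower without replicate 1 or 2. Mitochondrial ribosome genes had 18 of 74 lower (24.3%) and 8 higher (10.8%), led by MRPL12 with 8.33, 8.43 and 8.34 against 9.71, 9.36 and 9.04, and MRPL1 (-0.95 ± 0.12). Of the higher calls 4 were left without control replicate 1 or 3 day replicate 2, and 5 without 3 day replicate 1 or 1 day replicate 2 or 3.

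Of 70 respiratory chain genes 58 were not called, 7 were higher and 5 lower, with 4 higher and 3 lower without control replicate 1 or 3 day replicate 3 and 3 lower without 3 day replicate 2. The largest difference was that of CYCS, cytochrome c, the electron carrier that triggers caspases when it leaves mitochondria, which had 7.73, 7.60 and 7.67 at 3 days against 9.41, 9.43 and 9.43 in control, 3.39-fold lower (adjusted p = 2.87e-07). The next largest were NDUFA9 (-0.74 ± 0.11), UQCRC1 (-0.63 ± 0.13) and NDUFA8 (0.56 ± 0.11). In the tricarboxylic acid cycle 4 of 21 genes were higher and 5 lower (2 higher without 3 day replicate 2, and 2 lower without control replicate 1 or 2 or 3 day replicate 1), and in fatty acid oxidation 5 of 17 were higher and 1 lower, including HADH with 10.85, 11.15 and 11.25 against 10.14, 10.34 and 10.49 and CPT2, the inner membrane carnitine transferase (0.57 ± 0.13). CS, citrate synthase, was higher by its brightest probe (0.53 ± 0.14), with other probes at -0.48 and 0.39.

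None of the 13 measured core particle genes of the proteasome was called by limma (3 were lower and 0 higher at an unadjusted p under 0.05, and 1 was called lower without control replicate 2 or 3 day replicate 1), with differences from -0.36 (PSMA3) to 0.20, whereas 6 of 14 regulatory particle genes were lower, led by PSMD12 with 9.52, 9.28 and 9.18 at 3 days against 10.20, 10.06 and 9.86 in control; the difference between the subcomplexes was not tested. PSME1, an interferon-inducible activator subunit, was higher (10.27, 10.30 and 10.28 against 9.40, 9.46 and 9.53) and PSME3, a nuclear activator, lower (-0.59 ± 0.13). Leaving out 3 day replicate 2 left 4 proteasome genes lower in place of 7. Of 38 chaperone genes 6 were higher (15.8%), 3 without 3 day replicate 2, and 9 lower (23.7%), against 22.5% and 18.1% of all genes. HSPB8, a small heat shock protein, had 9.31, 9.24 and 9.10 against 6.29, 6.39 and 6.91 (2.69 ± 0.16), and its partner in selective autophagy, BAG3, had 8.83, 8.87 and 9.03 against 7.72, 7.56 and 7.87 (1.19 ± 0.12). DNAJB2 was higher by 1.11 ± 0.11. The TRiC subunits CCT6A (-0.70 ± 0.17), CCT5 (-0.59 ± 0.12) and CCT3 (-0.52 ± 0.12, second probe -0.17), which fold actin and tubulin, were lower, as was HSP90AB1, the constitutive cytosolic HSP90 (11.99, 11.91 and 11.90 against 13.05, 12.75 and 12.20). Of 61 ubiquitin ligase and deubiquitinase genes 11 were higher (18%) and 16 lower (26.2%), among them KLHL24 (1.33 ± 0.11), UBE2L6, the conjugating enzyme for ISG15 (1.09 ± 0.10), OTUB1 (-1.05 ± 0.16) and USP44 (-0.81 ± 0.17).

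Chromatin regulators were more often lower than higher, 23 against 9 of 76 measured. SWI/SNF subunits were among the lower: SMARCA2, an ATPase, had 8.40, 8.40 and 8.20 at 3 days against 9.23, 9.20 and 9.56 in control, SMARCB1 had 9.45, 9.44 and 9.41 against 10.51, 10.33 and 10.03, and SMARCC1 differed by -0.85 ± 0.14. CREBBP, a histone acetyltransferase, had 8.5, 8.60 and 8.65 against 9.89, 9.59 and 9.46, and SETD1A, a histone H3 lysine methyltransferase, differed by -0.86 ± 0.12. Of histone modifying enzymes 14 were lower, or 9 without 3 day replicate 1. Among the higher genes were SETDB2, a SET domain protein, with 9.21, 9.10 and 9.19 against 7.32, 6.69 and 7.15 (2.11 ± 0.16), the mitochondrial SIRT4, undetected in control and at least 1.81-fold higher, and CHD3, a remodelling ATPase (1.39 ± 0.24). HDAC1 was higher by 0.63 ± 0.15.

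**Figure D3:**
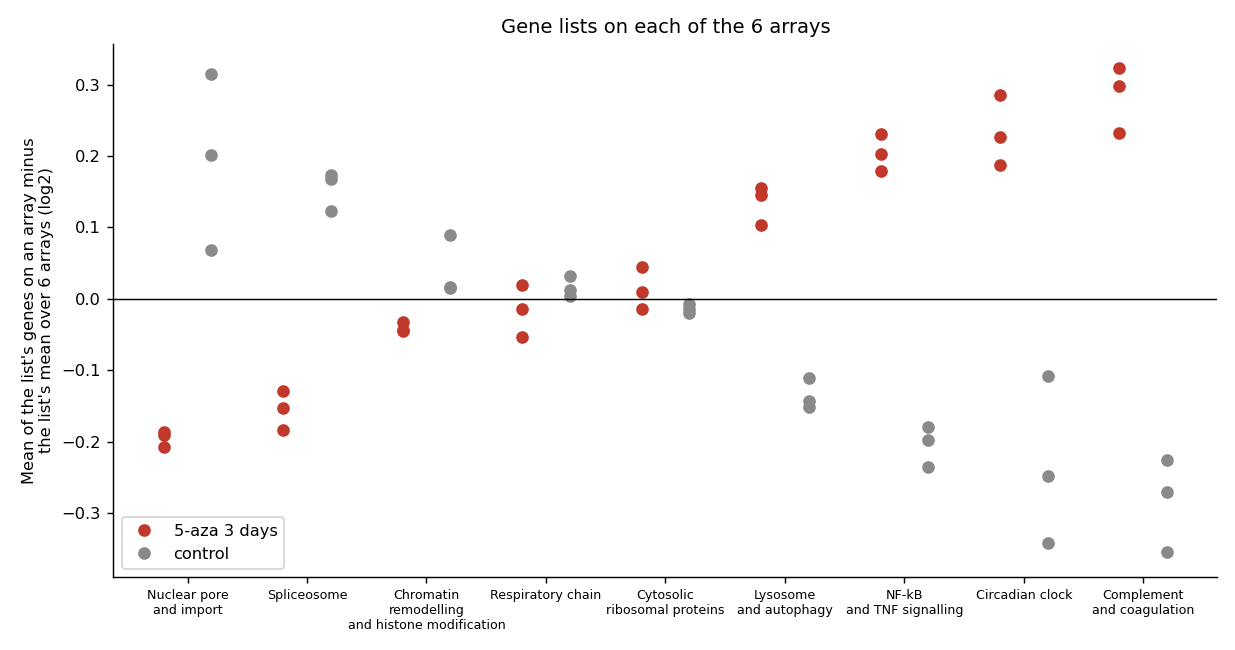
Points give, for 9 lists and each of the 6 arrays, the mean level of the list's genes on that array less the list's mean over the 6 arrays (log2), with 3 day arrays in red to the left of control arrays in grey. The arrays separate for every list shown except the respiratory chain and ribosomal proteins, where they lie between -0.054 and 0.045 and overlap. Separation is not particular to the lists shown, since 51.4% of all genes did not overlap between the groups. The integrin and focal adhesion list, with 10 higher and 8 lower, separates too (0.014 to 0.075 at 3 days, -0.072 to 0.005 in control).

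Lysosome and autophagy genes were more often higher than lower. Lysosomes digest material delivered by endocytosis and autophagy with acid hydrolases kept active by a proton pump. Of 72 measured genes (of 93) 28 were higher and 9 lower, with a median of 0.23 on the quantile scale, which turned to -0.06 with median scaling (15 higher, 14 lower) but stayed 0.13 above the median of the 10088 genes under that scaling, -0.185. The acid hydrolases had 11 of 25 higher. CTSL, the cysteine protease cathepsin L, had 12.68, 12.53 and 12.87 at 3 days against 11.09, 11.46 and 11.72 in control, 2.42-fold higher (adjusted p = 6.15e-05), with its other probes at 0.51 and 1.23. FUCA1, a fucosidase, had 8.55, 8.65 and 8.72 against 7.36, 7.43 and 7.65, and CTSB, cathepsin B, 10.53, 10.71 and 10.71 against 9.35, 9.46 and 9.69. The largest rise, DPP7 (2.12 ± 0.20), rested on its brightest probe, since its other 3 probes gave 0.26, 0.03 and 0.34. CTSA, protective protein for sialidase and galactosidase, was lower, with 6.5, 6.37 and 6.53 against 7.94, 7.76 and 7.18.

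NPC2, which hands cholesterol to the lysosomal membrane, had 13.05, 12.99 and 13.04 at 3 days against 11.62, 11.73 and 11.84 in control (1.30 ± 0.11, adjusted p = 3.35e-06). SCARB2, the receptor that brings glucocerebrosidase to lysosomes, had 11.24, 11.29 and 11.31 against 10.27, 10.39 and 10.21, and PSAP, the saposin precursor, had 12.51, 12.73 and 12.67 against 11.32, 11.78 and 11.86. Of the proton pump, ATP6V1F was higher by 0.59 ± 0.11 and ATP6V1H lower by its brightest probe (-0.32 ± 0.12, second probe 0.53). LAPTM4B was lower (-0.89 ± 0.14). Among autophagy factors SQSTM1, the cargo receptor p62, had 13.25, 13.48 and 13.32 against 11.67, 12.12 and 12.00, 2.68-fold higher, and RRAGD, a Rag GTPase that reports amino acids to mTOR, had 8.80, 8.78 and 8.63 against 7.99, 7.60 and 7.74. MAP1LC3A was 2.52-fold higher by its brightest probe and 0.17 (log2) by its second. BECN1 (-0.52 ± 0.16), UVRAG (-0.65 ± 0.17) and ATG16L1 (-0.47 ± 0.11), which start or extend the autophagosome membrane, were lower.

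**Figure D4:**
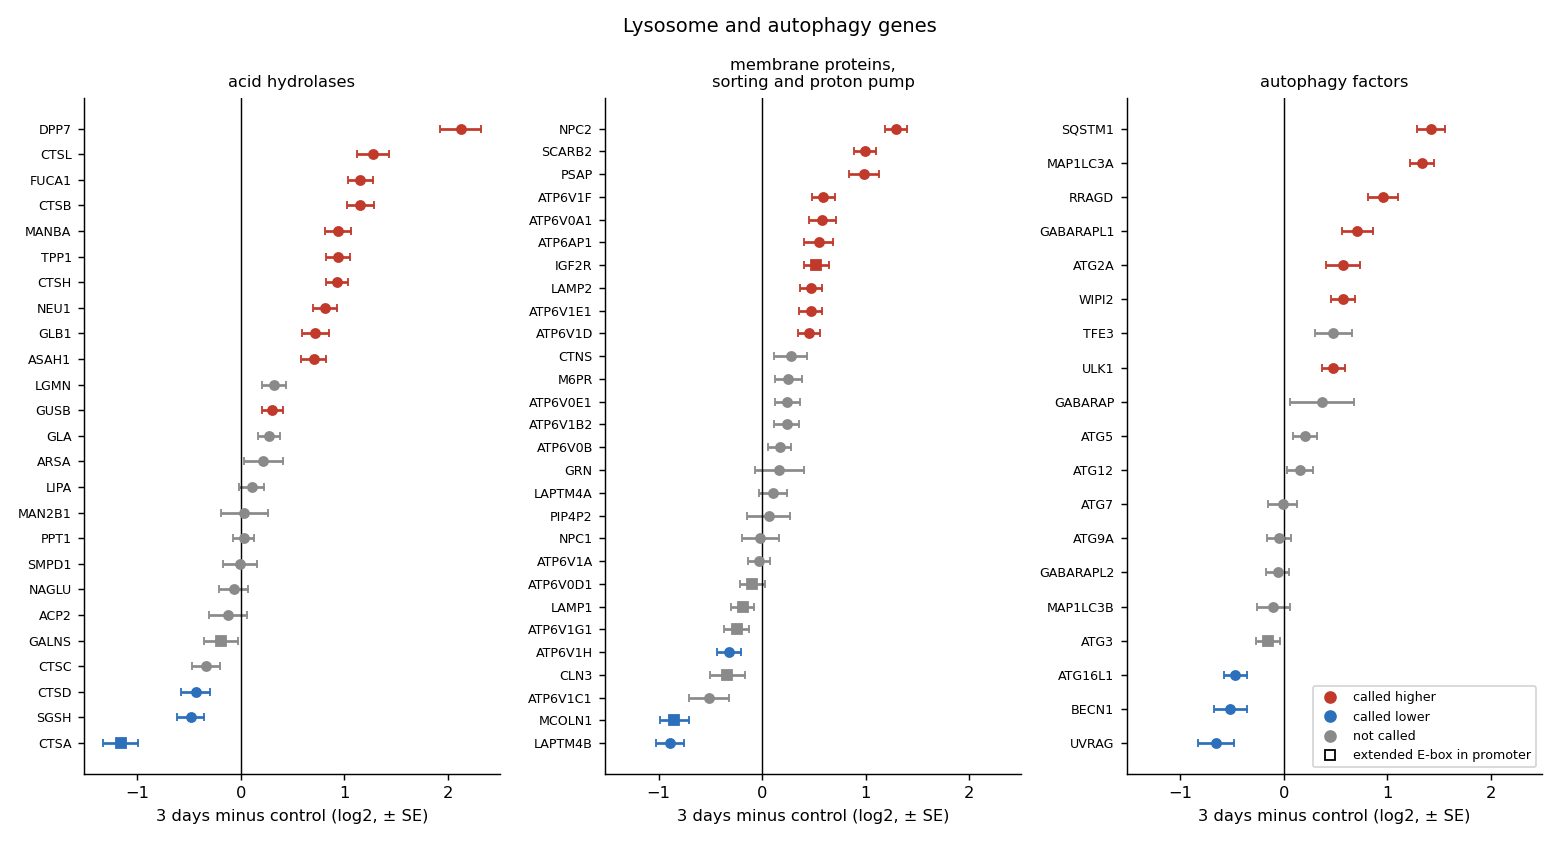
Each point is a measured lysosome or autophagy gene with its difference, 3 days minus control (log2, bars ± SE), in 3 groups by role, red for called higher, blue for called lower and grey for not called. Squares mark genes whose promoter holds the extended E-box, and 1 of 9 squares is red. Circles are genes without the motif or with no matched promoter to search, since 53 of the 72 genes had one.

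Many lysosomal promoters carry the extended E-box TCACGTGA, the site of the TFEB and TFE3 family, which contains the palindromic E-box CACGTG. The motif was in 9 of 53 promoters of the list (17%), against 2.09% of all tested promoters and 1.04% of the 27305 of the reference. Windows of 60 bases around it are shown for the single higher gene, the lower genes and some not called, to place the motif, in capitals, beside the values (RefSeq, GRCh38.p14, 5′ to 3′ on the strand of the gene).
IGF2R: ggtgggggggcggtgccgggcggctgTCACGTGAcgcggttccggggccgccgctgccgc
ATP6V0D1: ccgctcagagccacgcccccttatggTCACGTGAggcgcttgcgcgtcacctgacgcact
LAMP1: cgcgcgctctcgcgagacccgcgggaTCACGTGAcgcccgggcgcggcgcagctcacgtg
MCOLN1: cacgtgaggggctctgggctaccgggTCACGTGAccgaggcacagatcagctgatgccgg
CTSA: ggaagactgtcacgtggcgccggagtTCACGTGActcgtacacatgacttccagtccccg
IGF2R, the mannose 6-phosphate receptor that sorts hydrolases (chr6:159969027-159969086, plus strand), holds the motif at 29, 75 and 133 bases before the start site and was higher by 0.52. ATP6V0D1 of the proton pump (chr16:67481184-67481243, minus strand; motif 60 bases before the start) and LAMP1, the main lysosomal membrane glycoprotein (chr13:113297184-113297243, plus strand; 29 and 2 bases before), were not called, at -0.10 and -0.19. MCOLN1, the lysosomal calcium channel (chr19:7522583-7522642, plus strand; 42 and 15 bases before), was lower by its fitted difference of -0.85 and undetected at 3 days, at least 1.29-fold, and CTSA (chr20:45891283-45891342, plus strand; 26 bases before) fell by 1.16. Over the list, 1 of the 9 genes with the motif was higher, 2 lower and 6 not called (median -0.19), whereas of the 44 without it 20 were higher, 3 lower and 21 not called (median 0.29). Of all 172 tested genes with the motif 13.4% were higher and 22.1% lower, against 22.5% and 18.1% of all genes.

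In the NF-kB and TNF list, 16 of 35 measured genes (of 70) were higher and 1 lower, with a median of 0.31, or 0.25 with undetected genes at their bounds; 3 of the higher genes were measured only because they were detected at 3 days. NF-kB factors are held in the cytoplasm by inhibitors that are themselves induced as feedback. NFKBIZ, an atypical nuclear inhibitor, had 8.98, 9.28 and 9.29 at 3 days against 7.72, 7.20 and 7.60 in control (1.68 ± 0.14, adjusted p = 4.87e-06). NFKB1, the p105 precursor, had 10.32, 9.98 and 10.11 against 8.92, 8.92 and 9.30, and NFKBIA, the classical inhibitor, 10.45, 10.39 and 10.83 against 9.93, 9.84 and 9.87. RELA was not called (-0.17). Of secreted factors, CX3CL1, the membrane-bound chemokine fractalkine, had 7.80, 8.24 and 8.12 against 6.58, 6.58 and 6.34, and CXCL14 7.57, 7.77 and 7.85 against 6.22, 6.05 and 6.48. IL6 (0.18) and CXCL8 (0.09) were not called, and CCR7 was the leading receptor. TRAF4 was lower (-0.43 ± 0.14), and no gene was lower without control replicate 2 or 3 day replicate 2. The counts shifted to 7 higher and 5 lower with median scaling, and the median stayed above 0 (0.14).

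Complement and coagulation components, secreted proteases and their cofactors, had 11 of 20 measured genes (of 49) higher, of which 3 were measured only because they were detected at 3 days, with 1 lower and a median of 0.49, and 8 higher and 3 lower with median scaling. PLAU, the urokinase that turns plasminogen into plasmin, had 9.46, 9.63 and 9.63 at 3 days against 7.53, 7.94 and 7.5 in control, 3.78-fold higher. VWF, F12 and CFD were undetected in control and at least 1.5-, 2.01- and 1.6-fold higher. PROCR, the protein C receptor (1.30), C5 (1.05) and PROS1 (0.94) were also called. The lower gene was C1S (-0.44 ± 0.13), a call that was lost without control replicate 1. Among extracellular proteases and inhibitors 10 of 26 were higher and 4 lower: PRSS8, the membrane serine protease prostasin, had 10.01, 10.59 and 10.22 against 8.24, 8.79 and 9.03, its inhibitor SPINT2 had 10.71, 10.79 and 10.92 against 9.49, 10.15 and 9.99, and ADAM19 had 10.40, 10.21 and 10.24 against 8.74, 9.44 and 9.30. WFDC2 was higher by 1.07 ± 0.11. The lower calls of this list depended on single arrays, falling to 1 without control replicate 1 and without 3 day replicates 1 or 3, and to 2 without control replicate 2 or 3 day replicate 2.

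In the Notch pathway, in which a ligand on a neighbouring cell leads to release of the receptor's intracellular part and its binding to RBPJ, 12 of 28 genes were higher and 5 lower, and the median of 0.21 was 0.01 with median scaling. Ligands and receptors were higher in 5 of 7: DLL3 had 7.68, 7.74 and 8.15 at 3 days against 6.47, 6.19 and 6.48 in control, DLL1 8.94, 8.99 and 8.97 against 7.98, 8.07 and 8.26, and JAG1 8.73, 8.95 and 8.71 against 7.96, 7.92 and 8.02; JAG2 was higher by 0.81 ± 0.12 with its second probe at -0.25. NOTCH2 was lower (-0.57 ± 0.16), a call lost without control replicate 3 or 3 day replicate 3. LFNG, the fringe glycosyltransferase that tunes ligand choice, had 10.34, 10.29 and 10.28 against 8.93, 9.20 and 9.19. At the transcriptional end RBPJ itself was 2.89-fold lower (8.02, 7.98 and 7.99 against 9.57, 9.44 and 9.56; second probe -0.94), the target HEY2 was lower by 1.58 ± 0.13 on the log2 scale (6.23, 6.56 and 6.49 against 8.22, 7.81 and 7.98), HES1 was not called (0.23) and HES4 was among the largest rises.

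Hedgehog genes, 8 measured of 20, had 4 lower and none higher, with 1 higher by limma at an unadjusted p under 0.05, DISP1, which was called without control replicate 3. GLI2, the main activator, had 7.99, 7.29 and 7.28 in control and was undetected at 3 days, at least 2.21-fold lower. GLI1, itself a target of the pathway, had 7.20, 6.82 and 7.47 at 3 days against 8.25, 8.12 and 7.86 in control, and SMO, the transducing receptor, 8.12, 8.19 and 8.22 against 9.36, 8.99 and 8.57. GLI3 was lower by 0.49 ± 0.15 on the log2 scale. The Hippo list had 7 higher (29.2%) and 6 lower (25%) of 24, against 22.5% and 18.1% of all genes. Its targets of YAP went both ways, with AXL at 8.84, 8.83 and 8.84 against 7.35, 7.57 and 7.77 and CCN2, connective tissue growth factor, at 9.36, 9.0 and 8.88 against 10.14, 10.05 and 10.31. Without 3 day replicate 1 only 2 genes of this list were lower, and without replicate 2 only 3.

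Clock genes had 7 of 15 higher and none lower, with a median of 0.38, and by limma 0 were lower at an unadjusted p under 0.05; median scaling left 3 higher and a median of 0.14. BHLHE40, a repressor of the clock that also responds to stress, had 9.81, 9.84 and 9.75 at 3 days against 7.72, 7.90 and 8.12 in control (1.89 ± 0.13, adjusted p = 9.49e-07). NFIL3 had 7.95, 8.15 and 8.39 against 6.92, 6.47 and 6.99, CRY1 10.49, 10.49 and 10.28 against 9.77, 9.71 and 9.87 (second probe -0.05), and DBP 6.96, 7.27 and 6.67 against 6.11, 6.28 and 6.30. CLOCK (0.02), NR1D1 (-0.01) and PER2 (0.27) were not called. Cells were harvested once per group, so phase was not measured.

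In insulin and FOXO signalling the receptor side was mostly not called (2 of 17 higher, 3 lower, with 1 of each without control replicate 1 and 1 higher without 3 day replicate 3), while mTOR and FOXO genes had 10 of 19 higher and 4 lower. TXNIP, which binds thioredoxin and limits glucose uptake, had 11.58, 12.05 and 12.03 at 3 days against 9.89, 10.15 and 10.11 in control, 3.58-fold higher. KLF9 had 8.42, 8.71 and 8.72 against 6.47, 6.49 and 6.46, and KLF6 10.61, 10.56 and 10.55 against 9.02, 9.16 and 9.45. DDIT4 (0.74), which restrains mTOR, was higher, TSC1 was higher by its brightest probe (0.69, other probes -0.06 and 0.10) and MTOR was not called (-0.14). The FOXO factors diverged: FOXO3 was higher (0.82), and FOXO1 (8.91, 8.86 and 8.91 against 9.63, 9.53 and 9.38) and FOXO4 were lower. KLF4, a Krüppel-like factor of pluripotent cells, was lower by 0.84 ± 0.15 on the log2 scale.

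**Figure D5:**
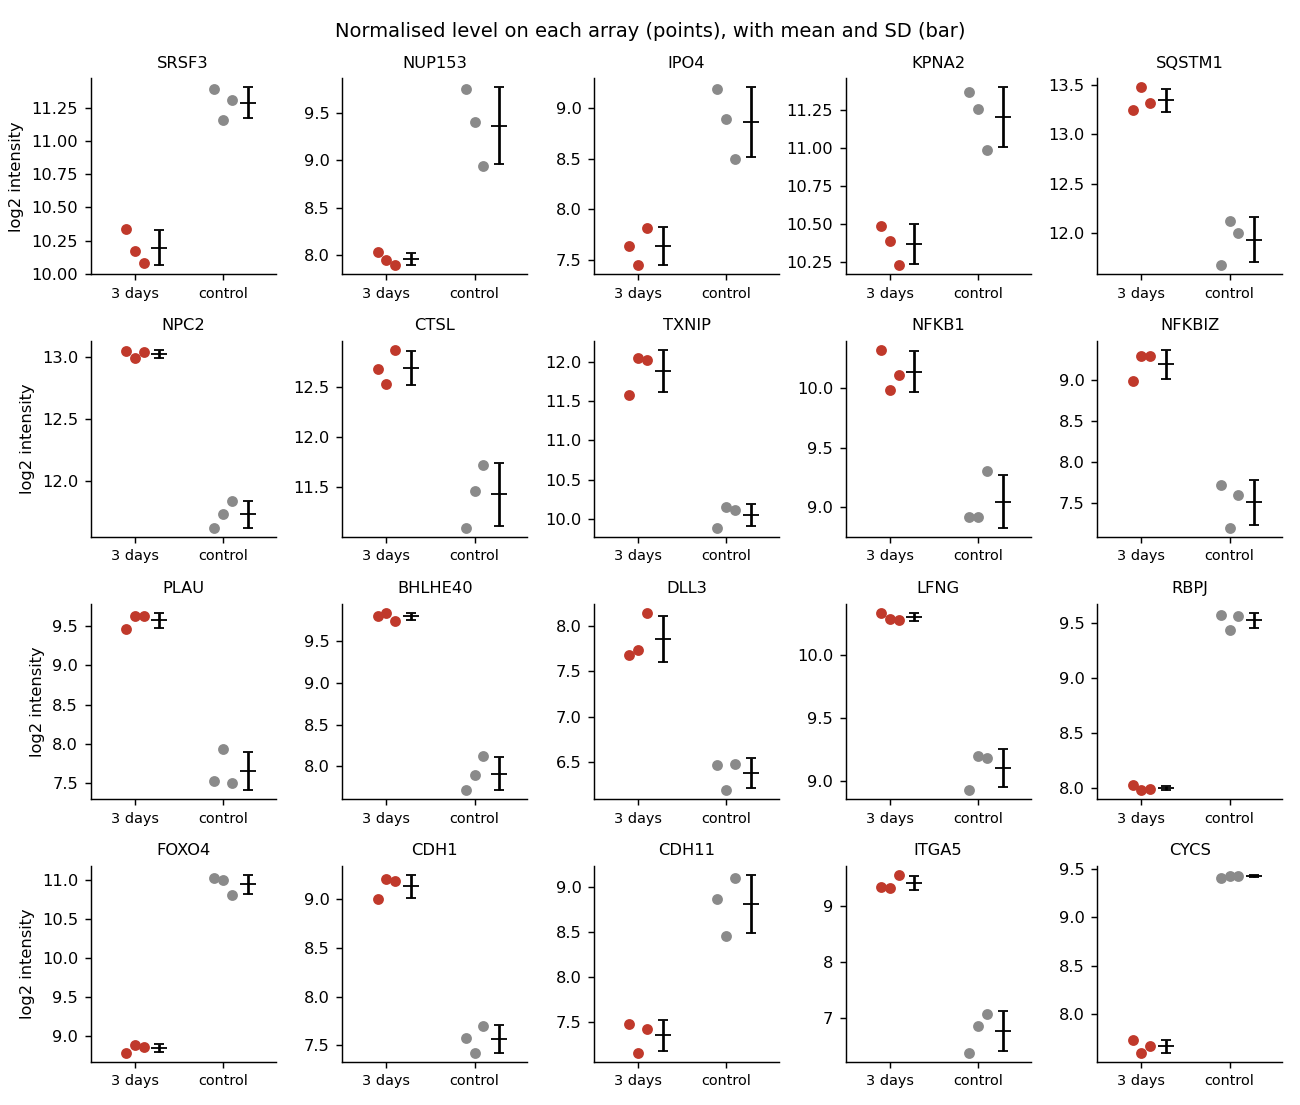
Each panel shows the normalised level (log2 intensity) of a gene on the 3 day arrays (red) and the control arrays (grey), with the mean and SD beside them; vertical scales differ and do not start at 0. In all 20 genes shown the groups are apart, as were those of 51.4% of all genes.

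Adhesion and cytoskeleton genes went in both directions, as all genes did. CDH1, E-cadherin, was higher (9.0, 9.21 and 9.19 at 3 days against 7.57, 7.42 and 7.70 in control, 2.96-fold), whereas the mesenchymal CDH11 (7.48, 7.16 and 7.43 against 8.86, 8.46 and 9.10) and CDH2, N-cadherin (10.53, 10.52 and 10.36 against 11.13, 11.04 and 11.18), were lower. Of the whole junction list 10 of 40 were higher (25%) and 8 lower (20%, or 5 genes without 3 day replicate 1). Of all genes 22.5% were higher and 18.1% lower. CLDN23 (1.01 ± 0.13) and CLDN6, an early embryonic claudin (-1.08 ± 0.18), were among the tight junction genes called. The gap junction protein GJA1 was lower by 0.72 ± 0.12 on the log2 scale. Among integrins ITGA5, the fibronectin receptor, had 9.34, 9.32 and 9.55 against 6.38, 6.86 and 7.07 (2.63 ± 0.16, adjusted p = 2.87e-07), and 9 of 13 integrins were not called. CAVIN1, which builds caveolae, was higher by 1.30 ± 0.12, and the kinase SRC lower by 0.98 ± 0.16 on the log2 scale. Of the 34 cilium genes 8 were higher (23.5%), 4 without 3 day replicate 2 or 3, and 2 lower (5.88%). BBS2 had 9.91, 10.03 and 10.08 against 9.06, 9.05 and 8.84, and BBS1, of the same trafficking complex, was lower (-0.59 ± 0.13).

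Neuronal and synaptic genes had 18 of 51 higher and 12 lower, and 9 higher and 16 lower with median scaling. STMN2 and STMN4, stathmins that destabilise microtubules in growing axons, were undetected in control and at least 3.49- and 3.33-fold higher. Both were measured only because they were detected at 3 days. SYT11 had 12.33, 12.47 and 12.47 at 3 days against 10.84, 11.33 and 11.67 in control, and CNTNAP1, a protein of axonal contacts, 9.27, 9.82 and 9.81 against 7.99, 8.22 and 8.33. NLGN1, a postsynaptic adhesion protein, was lower (6.82, 6.72 and 6.86 against 8.25, 8.16 and 8.28), as were NEFM (-0.83 ± 0.15) and CRMP1 (-0.74 ± 0.16). Axon guidance genes had 9 higher and 9 lower of 36, 25% each way against 22.5% and 18.1% of all genes. EFNB3 had 8.68, 8.62 and 8.43 against 7.32, 7.44 and 7.58, and EFNB1, its paralog, was undetected at 3 days and at least 2.50-fold lower. The Eph receptors EPHB1 and EPHB4 were lower, at least 1.96-fold and by 1.21 ± 0.23 (log2), and so was ROBO1 (6.86, 7.11 and 6.92 against 7.89, 7.98 and 8.29).

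Ion channels, of which 39 of 106 were measured, had 15 higher and 7 lower, and 9 and 8 with median scaling. Leaving out any single 3 day or control array left 2 to 4 of the lower calls. KCNG1, a modulatory potassium channel subunit, had 9.58, 9.51 and 9.56 at 3 days against 7.92, 8.26 and 8.46 in control, and CACNB3, a calcium channel beta subunit, 10.43, 10.51 and 10.39 against 8.93, 9.25 and 9.42. ASIC1, an acid-sensing channel, was undetected in control and at least 1.71-fold higher, and was measured only because it was detected at 3 days. In G protein signalling 17 of 62 were higher (27.4%) and 7 lower (11.3%), or 10 higher without 3 day replicate 2. The shares of all genes were 22.5% and 18.1%. ARRB1, a beta-arrestin, had 9.65, 9.63 and 9.82 against 7.91, 8.42 and 8.47, the sphingosine phosphate receptor S1PR5 had 8.40, 8.28 and 8.35 against 6.62, 7.09 and 7.06, and CCKBR, the gastrin receptor, was lower (8.85, 8.43 and 8.65 against 10.33, 10.10 and 9.73).

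5-aza enters cells as a nucleoside and is handled by the enzymes of nucleotide salvage. CDA, the cytidine deaminase that inactivates it, was higher, with 7.23, 7.29 and 7.13 at 3 days against 6.41, 6.25 and 6.44 in control (0.85 ± 0.11, adjusted p = 8.34e-05). UPP1, a uridine phosphorylase, had 10.54, 10.90 and 10.67 against 9.35, 9.44 and 9.49. RRM2, the regulatory subunit of ribonucleotide reductase, was undetected at 3 days and at least 2.58-fold lower, and PFAS, of purine synthesis, had 10.09, 10.04 and 9.90 against 10.89, 10.83 and 10.89. CTPS1 (-0.50 ± 0.11) and UCK2 (-0.64 ± 0.15) were lower and TYMS higher (0.39 ± 0.11). Over the list 5 of 35 were higher (14.3%), 3 without control replicate 3 or 3 day replicate 1, and 8 lower (22.9%). The shares of all genes were 22.5% and 18.1%. The large neutral amino acid transporter moved with both chains, SLC7A5 at 10.35, 10.25 and 10.37 against 8.95, 9.55 and 9.58 and SLC3A2 at 11.12, 11.24 and 11.12 against 10.18, 10.39 and 10.53. Of the 17 genes measured of the amino acid transport list 6 were lower (3 without 3 day replicate 3). The largest fall among them was that of SLC6A8 (-1.06 ± 0.22), which is a creatine transporter.

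In iron and heme handling 12 of 34 were higher (35.3%) and 7 lower (20.6%), or 4 lower without 3 day replicate 3. Among all genes 22.5% were higher and 18.1% lower. BLVRB, which reduces biliverdin from heme breakdown, had 7.65, 8.08 and 7.82 at 3 days and was undetected in control, at least 2.89-fold higher, and the heme synthesis enzymes UROS (11.16, 11.42 and 11.32 against 9.87, 10.44 and 10.42) and ALAD (8.82, 8.72 and 8.83 against 7.43, 7.89 and 7.98) were higher. The transporters SLC39A14 (-1.01 ± 0.18), SLC30A1 (-0.97 ± 0.11) and FLVCR1, a heme exporter (-0.82 ± 0.15), were lower. Enzymes of glutathione conjugation were among the 15 of 40 drug handling genes that were higher, beside 5 lower (3 without control replicate 1 or 3 day replicate 2): GSTA4 had 11.04, 10.97 and 10.97 against 9.64, 9.69 and 9.94, MGST2 9.10, 9.24 and 9.0 against 8.14, 8.19 and 8.37, and GSTO1 12.22, 12.07 and 11.89 against 11.27, 11.29 and 11.34. The nucleotide and drug exporter ABCC4 was lower (-0.63 ± 0.11).

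Over the autosomes and X, the share of tested genes called higher was 14.8% (chromosome 18) to 28.1% (chromosome 22). Of 10080 placed genes 157 lay in runs of at least 4 neighbouring tested genes called in the same direction, 24 runs higher and 13 lower, the longest of 6 genes. Of all genes 22.5% were higher and 18.1% lower. How many such runs these shares would give by placement alone was not tested. On chromosome 17 the neighbours TUBG1, TUBG2, PLEKHH3 and CNTNAP1, within 90.3 kb, were all higher with a median of 1.32 (TUBG1 by its brightest probe, with its other probes at -0.03 and 0.00), including TUBG2 at 8.14, 7.93 and 8.24 at 3 days against 6.63, 6.58 and 7.20 in control. On chromosome 1 a run of 6 from MUC1 to HCN3 was higher over 104 kb (median 0.80). Of the 3700 probes without a gene name 943 were called (25.5%), 400 higher and 543 lower.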

How the data were processed

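NT2/D1 cells were profiled on Illumina HumanHT-12 v4 arrays, 3 per group. The authors read the arrays in GenomeStudio (version not given in the sources used here) and deposited raw bead intensities with a detection p-value for each of 47231 probes, without background correction, beside quantile normalized intensities for 47226 probes, which were used here only as an alternative. The lowest raw intensity was 41.6 and no arrays were identical. Counting depth does not apply to arrays, and their number limits the precision.

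From the raw intensities, background was corrected by normexp, its negative control level being inferred from detection p-values (offset 16), and 9 arrays (3 days, 1 day and control) were quantile normalized and set on the log2 scale, in R 4.3.3 with limma 3.58.1. A mean per group was fitted with moderated variance (6 residual and 6.31 prior degrees of freedom), and p-values of 3 days minus control were adjusted by Benjamini-Hochberg over the 16452 kept probes, called under 0.05. Errors after ± are standard errors of that difference. The fit was tested on simulated data. Replicate spread (median SD) was 0.135 at 3 days, 0.124 at 1 day and 0.171 in control, against 0.358 for the cisplatin arrays in a fit of all 12. Probes were named by the platform annotation given: 30112 had 1 gene symbol, 8 had several and were not named, and the rest had none. Of 2243 genes with more than 1 kept probe, 523 had at least 2 called, 33 of them in opposite directions.

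The members and lists were chosen with earlier results of these data known. Genes named are called, do not overlap between groups and are detected on all 3 arrays of the higher group: the 12 largest rises and falls and up to 4 per direction of each list role, of which the text gives some; for a role without calls, the 2 largest differences; and the cell type markers. Others, namely genes given as not called, DDIT4, TSC1, FOXO3, PROCR, PROS1, PRPF4, RANGAP1, DISP1, those of the promoter windows and those of the chromosomal runs, were chosen after their values were seen. Alternatives covered scaling, background, filters, the arrays fitted, a replicate block, array weights, thresholds and single arrays left out. Promoters and positions are from RefSeq (GRCh38.p14).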

Additional observations from a re-analysis of the deposited data

How the results depend on the processing

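The 6069 calls became 2539 when the cisplatin arrays joined the fit, since their wider spread entered the common error, 3910 at an adjusted p under 0.01 and 3233 with a fold of at least 1.5 also required, and stayed between 5406 and 6446 under the other alternatives that kept all 9 arrays or the 6 compared; adjusting over genes alone called 4209 genes. Leaving out single arrays gave 4943 to 5978 calls, of which 49.1% to 50.3% were higher. Median scaling gave 22% higher. Of the 373 named genes 144 lost the call with the cisplatin arrays, 61 with median scaling, 40 without the detection filter, and 9 to 51 with a single array left out; 166 lost it in some setting. The only change of sign was DNAJA2, at -0.018 with median scaling. Replicate numbers did not pair the samples: the deviations of same-numbered 3 day and control arrays correlated at -0.003, -0.047 and -0.030, and a replicate block gave 5820 calls. Probes near background limit what can be said of dim genes, so that 138 higher and 98 lower genes have only a bound. Each of these was kept only through the group in which it was detected, in every list that holds it.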
